A study of Mus musculus with 8 samples.

Results

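The genes described here encode the nuclear-encoded subunits of the mitochondrial respiratory chain and of ATP synthase. They were taken by name from the array's own annotation: every Ndufa, Ndufb, Ndufc, Ndufs and Ndufv gene with a number, Sdha to Sdhd, every Uqcr gene, the Cox genes from Cox4 to Cox8, and every Atp5 gene. This gave 83 of the 34541 gene names on the array, with 36 in complex I, 4 in complex II, 8 in complex III, 17 in complex IV and 18 in complex V. Of these, 73 are subunits of the kind found in most cells and 7 are isoforms of complex IV known for restricted expression. The other 3 fit the name pattern but not the description: Atp5c1-ps is named as a pseudogene, and Atp5s and Atp5sl (RefSeq symbols Dmac2l and Dmac2) are not subunits. The rule reads names alone and no measured value. Where a gene had several probes (27 genes), the probe with the highest mean over all arrays was read.

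The respiratory chain passes electrons from NADH, at complex I, or from succinate, at complex II, through complex III to complex IV, where oxygen is reduced to water. Complexes I, III and IV pump protons across the inner mitochondrial membrane, and complex V, the ATP synthase, uses the gradient to make ATP. Most subunits are encoded in the nucleus and a small set in mitochondrial DNA, and some nuclear subunits of complex IV have alternative isoforms that are known from heart and skeletal muscle, testis or lung. Stem cells and early progenitors are known for relying strongly on glycolysis, and neurons for relying on respiration.

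Single-colour Agilent arrays were read for 8 groups, 1 array for each. For sorting, K/l-EB5 cells were used, mouse embryonic stem cells (male, 129/Ola) that carry GFP at Rax, a gene that marks the early eye field and hypothalamus. These cells were turned into neural precursors in a defined medium, received the Wnt inhibitor IWR-1-Endo (5 µM) at day 3, and 12 h afterwards either Activin A (10 ng/ml) or SAG (100 nM), which activates the Sonic hedgehog pathway. Sorting at day 10 gave 4 populations, Activin RAX-positive, Activin RAX-negative, SAG RAX-positive and SAG RAX-negative. The Wi control was the male 129/Ola line E14Tg2A at day 10, given the inhibitor without Activin A or SAG, and no sort is named for it. All 5 cultures thus share the inhibitor, the strain background and the medium. The tissues were cortex, diencephalon with hypothalamus, and eye of Sv129s6 embryos of mixed sex at embryonic day 12.5 (3 embryos). Each array received RNA pooled from 3 experiments, so there is no replicate of any group, the number of arrays limits the precision, and a p-value below measures the spread among unlike cultures and unlike tissues. Culture, line, strain and dissection cannot be told apart from each other in a comparison of cultures with tissues.

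Between 59.5% and 79.3% of spots were well above background on each array, and 0 spots were saturated. The Wi control was alone on slide 2 and the other 7 arrays shared slide 1. RAX-positive arrays lay in slide column 1 and RAX-negative arrays in column 2, so gate and column cannot be told apart, and neither can the added factor and the position in the column. In the text, a level is the log2 of the processed intensity over the 75th percentile of the array's probes, so that 0 is that percentile. The subunits are bright genes, and bright genes shifted between arrays when another scaling was used. Values after quantile scaling, which gives every array the same distribution, therefore stand beside the main ones where they differ. Where only numbers are given, the cultures stand in the order Activin RAX-negative, Activin RAX-positive, SAG RAX-negative, SAG RAX-positive and Wi control, and the tissues in the order cortex, diencephalon/hypothalamus and eye. Levels of 2 genes come from different probes and are not set against each other.

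Of the 83 genes, 80 were well above background on all 8 arrays, including all 73 widely expressed subunits. The exceptions were 3 complex IV isoforms, described below. The widely expressed subunits kept within a narrow range. From the lowest to the highest of the 8 arrays a subunit spanned a median of 0.71 in log2, and 62 of 73 spanned less than 1, or 84.9%. Over all 20520 genes well above background on all arrays the median span was 1.51, and 21.2% spanned less than 1. After quantile scaling 66 of 73 subunits (90.4%) and 27.0% of all genes did so. These shares are a description of 8 arrays. Ndufb10, an accessory subunit of complex I, had the narrowest span, 0.27, with levels from 5.09 in SAG RAX-negative cells to 5.37 in cortex. Ndufb4, another accessory subunit of complex I, had the widest, 1.39, from 4.28 in SAG RAX-positive cells to 5.67 in the Wi control. Genes of the mitochondrial ribosome, which makes the subunits encoded in mitochondrial DNA, had a median span of 1.08 (77 genes), genes of the citric acid cycle one of 1.09 (18 genes) and cytosolic ribosomal proteins one of 1.11. After quantile scaling these were 0.82, 0.92 and 0.34, beside 0.62 for the subunits, and 93.2% of the cytosolic ribosomal proteins spanned less than 1. The cytosolic ribosomal proteins thus had a narrower median span than the subunits under quantile scaling and a wider one under the main scaling.

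**Figure D1:**
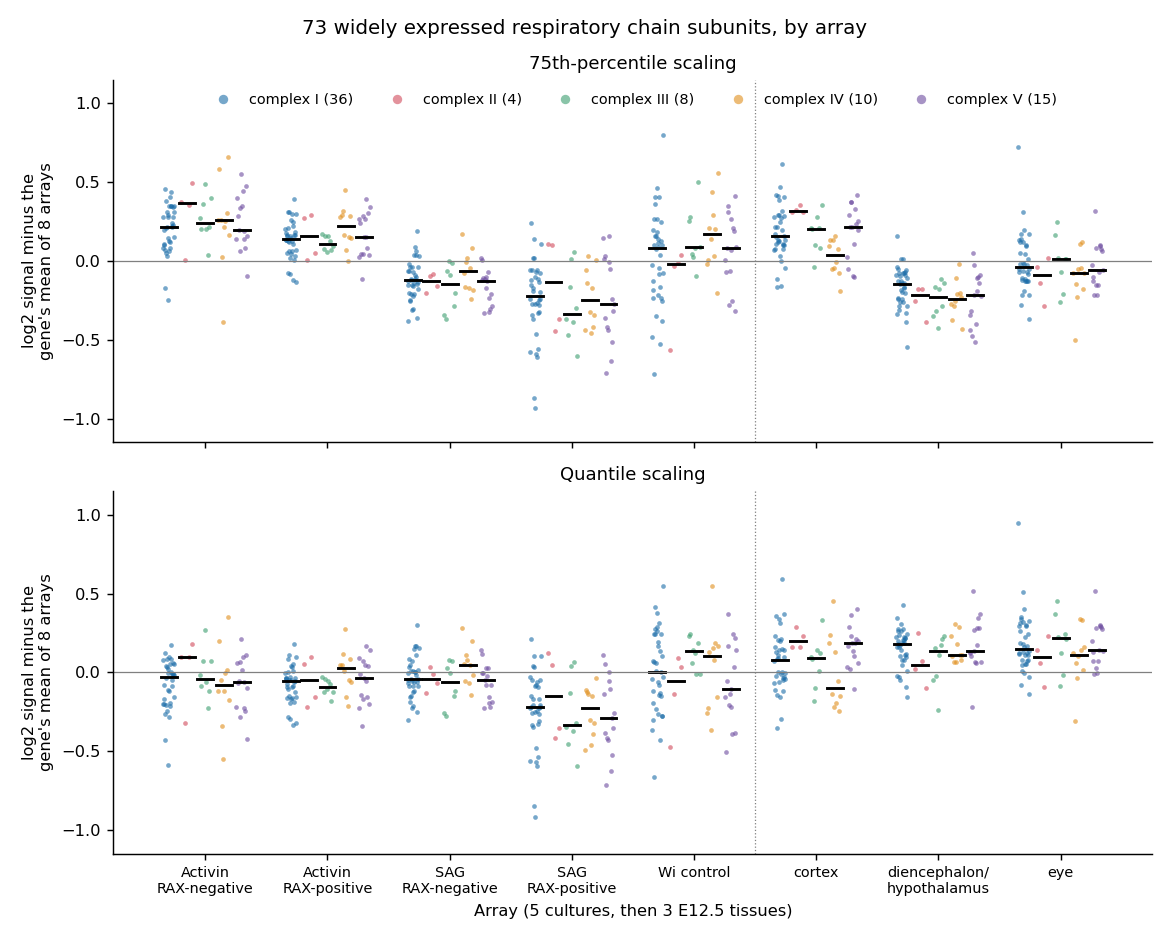
Levels of the 73 widely expressed subunits on each array, as the log2 level minus the same gene's mean over the 8 arrays, under 75th-percentile scaling (top) and quantile scaling (bottom). Each point is a gene, colours mark complexes I to V with the number of genes, and black bars are the medians of a complex. SAG RAX-positive cells have the lowest complex medians of the cultures under both scalings, level with SAG RAX-negative cells for complex II in the upper panel (both -0.13), while the order of the tissues differs between the panels.

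What the subunit genes shared beyond their products was looked for in their promoters. RefSeq (GRCm38.p6) gave a stretch of 250 bases before to 50 after the start for 68 of the 83 genes, among them 62 widely expressed subunits and 4 of the isoforms. The motif of NRF1, a known activator of nuclear genes for mitochondrial proteins, was found on either strand in 17 of the 62 (27.4%) and in 5.19% of all 27025 promoters of the table. AAGATGGCG, bound by YY1, was found in 7 (11.3%) against 1.64% of all promoters, and CCGGAAGT, bound by the ETS family with GABPA, in 5 (8.06%) against 4.31%. The widely expressed subunits had a median of 19.5 CpG dinucleotides in these 300 bases, and all promoters 8. The 4 isoform promoters had 0 matches to these 3 motifs and a median of 8.5 CpG. A match is a description of the letters and no measure of binding. The sequences shown are the 250 bases before the start, 5′ to 3′ on the gene's strand, with matches to the NRF1 motif in capitals. Ndufb4 (chr16:37654369-37654618, minus strand) and Sdha (chr13:74350241-74350490, minus strand) each hold 3 matches and are shown for that reason. Cox6b1 (chr7:30626115-30626364, minus strand) and Cox6b2 (chr7:4753095-4753344, minus strand) are shown because these are the common and the restricted isoform of the same subunit, and Cox6b2 was the gene that passed the test between cultures and tissues.
Ndufb4: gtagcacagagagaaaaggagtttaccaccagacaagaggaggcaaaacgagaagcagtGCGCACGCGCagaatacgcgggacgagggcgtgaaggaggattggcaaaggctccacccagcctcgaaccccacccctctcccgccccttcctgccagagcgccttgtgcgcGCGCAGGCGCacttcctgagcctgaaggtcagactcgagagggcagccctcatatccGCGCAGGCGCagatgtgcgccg
Sdha: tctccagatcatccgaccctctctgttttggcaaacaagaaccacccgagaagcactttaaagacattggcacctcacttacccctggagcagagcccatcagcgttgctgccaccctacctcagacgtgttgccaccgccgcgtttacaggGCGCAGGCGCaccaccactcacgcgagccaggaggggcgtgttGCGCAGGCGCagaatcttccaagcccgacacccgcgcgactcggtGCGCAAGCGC
Cox6b1: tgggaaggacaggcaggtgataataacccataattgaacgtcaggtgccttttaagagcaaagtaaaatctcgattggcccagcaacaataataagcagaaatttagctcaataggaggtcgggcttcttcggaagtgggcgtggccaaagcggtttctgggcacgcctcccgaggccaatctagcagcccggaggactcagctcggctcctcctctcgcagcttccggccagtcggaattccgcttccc
Cox6b2: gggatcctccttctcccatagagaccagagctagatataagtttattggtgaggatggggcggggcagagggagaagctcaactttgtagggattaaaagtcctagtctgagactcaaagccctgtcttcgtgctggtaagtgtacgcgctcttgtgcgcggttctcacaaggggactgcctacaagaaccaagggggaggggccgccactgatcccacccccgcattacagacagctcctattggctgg

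Cultures and tissues were compared across all genes with limma, 5 arrays against 3. Of the 80 genes tested, 1 was higher in the cultures after Benjamini-Hochberg adjustment over all 27034 genes tested and 0 were lower. Over all genes 1.44% were called higher in culture and 1.41% lower, so 1 call of 80 is near the share of all genes. At an unadjusted p under 0.05 there were 2 of 80 higher, Cox6b2 and Cox7a1, and 0 lower, while 16.8% of all genes passed that threshold in either direction. The median difference, culture minus tissue, was 0.03 for the 80 genes and 0.16 for all genes tested. Quantile scaling moved these medians to -0.19 and 0.01, so the direction of the median depends on the scaling while it was below that of all genes under both. In 3 of the 80 genes every culture lay above every tissue (Cox6b2, Cox7a1 and Ndufa6), where 9.28% of all genes did, and in 0 every culture lay below, where 4.73% of all genes did.

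Among the widely expressed subunits the differences ran from -0.40 to 0.51 in log2, 41 above 0 and 32 below (9 above 0 after quantile scaling), with standard errors of 0.21 to 0.35, and 0 passed the test (smallest adjusted p 0.381). A subunit that was not called may still differ, within the error given. In simulated data, 200 genes were drawn from all 27034 tested, each with its own measured spread. This test called 0% of them when changed by 1 in log2, and 35.5% when changed by 2. The draw was not limited to the subunits, whose median span was narrower than that of all genes. How often such a change in a subunit would be called was not simulated. The differences seen here were smaller than the smallest change simulated.

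Complex I, the entry point for electrons from NADH, had a median difference of -0.01 (-0.20 after quantile scaling), with 18 genes above 0 and 18 below. Ndufv3, an accessory subunit of the NADH-binding arm, stood at 6.07 in Activin RAX-negative, 5.78 in Activin RAX-positive, 5.94 in SAG RAX-negative and 6.02 in SAG RAX-positive cells, at 6.72 in the Wi control, and at 5.87 in cortex, 5.37 in diencephalon/hypothalamus and 5.55 in eye. On the probe read, the Wi control was its highest array and cortex lay within the cultures, and the difference of 0.51 (SE 0.28) did not pass the test. Another Ndufv3 probe read 0.44 in the Wi control, below the 4 sorted cultures (0.72 to 1.37). The remaining probe read -1.64 in the Wi control, its highest array. Ndufa6, an accessory subunit, was at 4.89, 4.89, 4.64, 4.69 and 5.04 in the cultures and 4.51, 4.36 and 4.40 in the tissues. Its groups did not overlap, but its difference of 0.40 (SE 0.22, limma adjusted p 0.392) was not called. Ndufa1, a small membrane subunit, was at 5.28, 5.40, 4.82, 4.62 and 5.17 in the cultures and 5.27, 5.11 and 5.92 in the tissues. The eye was its highest array, SAG RAX-positive cells its lowest, and culture minus tissue was -0.37 (SE 0.30). Ndufb2, an accessory subunit, was at 5.08, 4.82, 4.49, 3.93 and 5.06 in the cultures and 5.09, 4.81 and 5.11 in the tissues. Both SAG populations lay below the other 6 arrays, and the difference was -0.33 (SE 0.32).

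Complex II, which is also an enzyme of the citric acid cycle, had differences between -0.01 and 0.06 for its 4 genes, all below 0 after quantile scaling (median -0.18). Sdha, the flavoprotein, was at 5.25 and 5.14 in Activin RAX-negative and RAX-positive cells, 4.67 and 4.98 in SAG RAX-negative and RAX-positive cells, 4.31 in the Wi control, 5.18 in cortex, 4.62 in diencephalon/hypothalamus and 4.83 in eye. The Wi control was the lowest of the 8. Sdhb, the iron-sulfur subunit, was at 5.75, 5.75, 5.65, 5.85 and 5.71 in the cultures and 6.06, 5.57 and 5.61 in the tissues, with cortex highest. Sdhc, a membrane anchor, was at 4.54, 4.48, 4.10, 3.74 and 4.17 in the cultures and 4.54, 4.01 and 3.90 in the tissues. Its top pair, Activin RAX-negative cells and cortex, came from different groups. Sdhd, the other anchor, was at 5.63, 5.19, 4.98, 4.77 and 5.17 in the cultures and 5.44, 4.75 and 5.15 in the tissues, with Activin RAX-negative cells at the top and diencephalon/hypothalamus at the bottom.

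Complex III, the cytochrome bc1 complex, had a median difference of 0.03 (-0.21 after quantile scaling), with 4 genes above 0 and 4 below. Uqcrc1, a core protein, was at 3.91 in Activin RAX-negative cells and between 3.42 and 3.48 in the other 4 cultures, against 3.52 in cortex, 2.99 in diencephalon/hypothalamus and 3.16 in eye. Activin RAX-negative cells were 0.46 above the Wi control by the main scaling and 0.13 after quantile scaling. Culture minus tissue was 0.31 (SE 0.24). Uqcrb, a small subunit, was at 5.45, 5.25, 5.03, 4.92 and 5.13 in the cultures and 5.05, 4.77 and 5.11 in the tissues, a difference of 0.18 (SE 0.23). At the other end of the complex, Uqcr11, a small subunit, was at 5.36, 5.23, 4.79, 4.69 and 5.44 in the cultures and 5.36, 4.99 and 5.41 in the tissues, a difference of -0.15 (SE 0.27). Uqcrq, a small subunit, was at 5.98, 5.67, 5.37, 4.97 and 5.67 in the cultures and 5.93, 5.44 and 5.59 in the tissues, a difference of -0.12 (SE 0.29). SAG RAX-positive cells were the lowest of the 8 arrays for both.

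Complex V had a median of -0.01 over its 18 genes and 0.01 over the 15 subunits (-0.28 after quantile scaling). Its membrane ring subunit c is encoded by 3 genes that make the same mature protein. Atp5g2 was at 7.72, 7.52, 7.27, 7.53 and 7.64 in the cultures and 7.28, 6.86 and 7.16 in the tissues, a difference of 0.44 (SE 0.23) that turned to -0.11 after quantile scaling. Atp5g3 was at 6.72, 6.54, 6.14, 6.27 and 6.34 in the cultures and 6.17, 5.88 and 6.12 in the tissues, a difference of 0.35 (SE 0.24) that turned to -0.02. In both, SAG RAX-negative cells fell within the tissues. Atp5g1 was at 6.13, 5.62, 5.40, 5.13 and 5.51 in the cultures and 5.79, 5.36 and 5.65 in the tissues. Its difference was -0.04 (SE 0.28) from the brightest probe and 0.45 from the mean of its 2 probes, which lay 0.98 apart in this difference. Atp5e, the epsilon subunit of the catalytic head, was at 5.95, 5.78, 5.56, 5.18 and 6.24 in the cultures and 6.27, 5.94 and 6.21 in the tissues. It had the lowest difference of all members, -0.40 (SE 0.29), with the Wi control level with the tissues by the main scaling. After quantile scaling the Wi control, at 0.17 from the gene's mean over the arrays, was below the tissues (0.37 to 0.52). Atp5k, a membrane subunit, was at 6.25, 6.08, 5.47, 5.26 and 5.45 in the cultures and 6.19, 5.63 and 5.85 in the tissues, a difference of -0.19 (SE 0.31). Activin RAX-negative cells were highest by the main scaling. After quantile scaling cortex was highest, at 0.40 from the gene's mean, and Activin RAX-negative cells, at 0.11, were below all tissues.

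**Figure D2:**
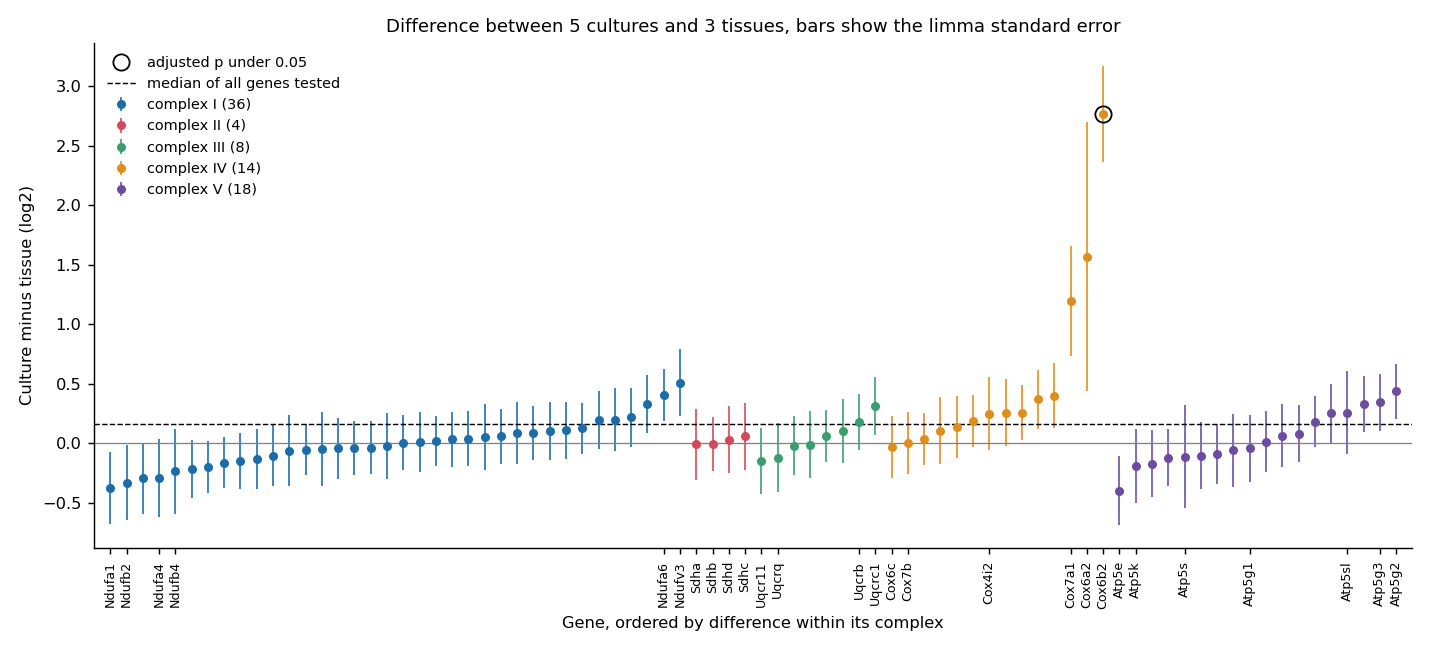
Culture minus tissue in log2 for the 80 genes tested, with some of them named, ordered within complexes I to V, with the limma standard error as bars. The dashed line is the median of all genes tested (0.16). Cox6b2 at 2.77 is the gene with an adjusted p under 0.05 (circled), and the widely expressed subunits lie between -0.40 and 0.51.

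Complex IV, cytochrome c oxidase, had a median difference of 0.25 over 14 genes tested and 0.16 over its 10 widely expressed subunits, 9 of which were above 0. After quantile scaling the median of the 10 was -0.09 and 3 were above 0. The largest of the 10 was Cox5a at 0.40 (SE 0.27), a subunit next to the catalytic core, with cultures from 6.41 to 7.07 and tissues from 5.98 to 6.62. Cox6c, a small subunit, was at 5.92, 5.77, 5.53, 5.24 and 5.99 in the cultures and 5.86, 5.49 and 5.81 in the tissues, a difference of -0.03 (SE 0.26). Cox7b, also small, was at 5.43, 5.28, 4.88, 4.71 and 5.32 in the cultures and 5.20, 4.92 and 5.25 in the tissues, a difference of 0.00 (SE 0.26). In both the cultures enclosed the tissues by the main scaling, while after quantile scaling the eye was the highest array. The genes that differed most in the complex were isoforms.

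Cox6b2, the isoform of subunit 6b that is known from testis, was the gene that passed the test. Its level was 2.41 in Activin RAX-negative, 2.69 in Activin RAX-positive, 3.29 in SAG RAX-negative and 3.11 in SAG RAX-positive cells and 3.17 in the Wi control, against -0.39 in cortex, -0.24 in diencephalon/hypothalamus and 1.13 in eye. Every culture lay above every tissue, and the eye lay above the other tissues. The difference was 2.77 (SE 0.40), or 6.82-fold, with a limma adjusted p of 0.0101. It stayed between 2.61 and 2.77 under the other scalings, background and probe settings, with adjusted p from 0.0064 to 0.0169. It was not called without cortex (2.49, adjusted p 0.0606) or without diencephalon/hypothalamus (2.57, adjusted p 0.0630), and within slide 1, without the Wi control, it was 2.71 (adjusted p 0.0222). Its probe lies on chromosome 7 of mm9 from 4703488 to 4703547. Cox6b1, the common isoform, was at 2.68, 3.52, 3.09, 2.75 and 3.50 in the cultures and 3.02, 2.96 and 3.02 in the tissues, a difference of 0.11 (SE 0.28). Some markers of other cell types also differed between these groups. All 8 red blood cell genes were called lower in culture, and their summed signal was 9.32 to 10.1 in log2 in the tissues and -2.12 to -1.64 in the cultures. Of 9 neural crest and mesenchyme genes 2 were called lower (Prrx1 and Pdgfra, median difference -3.29), with a summed signal of 5.60 to 6.77 in the tissues and 0.71 to 4.16 in the cultures. Of 5 endothelial genes 2 were called lower (Tek and Emcn, median -3.32), with a summed signal of 2.12 to 2.67 in the tissues and 1.55 to 3.42 in the cultures. The 9 pluripotency genes had a median of 3.90 and 0 calls. The part of these cell types in the result was not tested. The 12 neuron markers had 0 calls and a median difference of 0.35, and the 11 dividing-cell markers 0 calls and 0.26.

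Cox7a1, the isoform of subunit 7a known from heart and skeletal muscle, was at 2.28 in Activin RAX-negative cells and 1.94 in the Wi control, at 1.03 in Activin RAX-positive, 0.70 in SAG RAX-negative and 0.31 in SAG RAX-positive cells, and at 0.08, 0.10 and -0.02 in cortex, diencephalon/hypothalamus and eye. The tissues lay close together, below all cultures, and 2 cultures stood above the other 3. The difference of 1.20 (SE 0.46) had a limma p of 0.0305 and an adjusted p of 0.245, so it was not called. Markers of pluripotent cells were highest on the same pair of arrays. The 9 genes of that list had a summed signal of 6.63 in Activin RAX-negative cells and 7.46 in the Wi control, and of 0.88 to 2.95 on the other 6. Pou5f1, which defines the pluripotent state, was at 4.07 and 1.98 on that pair and at -3.37 or below on the others, while Nanog, another such gene, was at -1.25 in the Wi control, lower than that in Activin RAX-negative cells, and between -1.38 and -0.42 on the others. Muscle markers were higher in Activin RAX-negative cells (summed signal 2.34, 9 of 10 well above background) than on the other arrays but the eye (-1.67 to -0.03, and 6.04 in the eye), and markers of mesoderm and endoderm were highest there as well (4.63, against -0.48 to 3.50 elsewhere, 3.22 in the Wi control). The part of any of these cells in the level of Cox7a1 was not tested.

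Cox6a2, the isoform of subunit 6a known from heart and skeletal muscle, had the widest span of all members. Its level was 0.88 in SAG RAX-positive cells, -1.46 in SAG RAX-negative cells and -1.25 in the eye. It was -3.14 in both Activin populations, -2.90 in the Wi control, -4.52 in cortex and -4.78 in diencephalon/hypothalamus. SAG RAX-positive cells stood apart from all others, followed by eye and SAG RAX-negative cells. Culture minus tissue was 1.57 (SE 1.13, limma adjusted p 0.534), with wide spread in both groups. Muscle markers moved with it in the eye but not in the SAG cells. All 10 genes of that list were well above background in the eye, with a summed signal of 6.04 against -0.52 in cortex and -0.03 in diencephalon/hypothalamus. In SAG RAX-positive cells the sum was -1.67, the lowest of the 8 arrays, with 7 of 10 genes well above background. Myog, a gene of that list, was not well above background there (-8.08) and was at 1.54 in the eye. The part of muscle cells in the eye's level was not tested.

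Cox8b, the muscle isoform of subunit 8, was at -6.45, -7.52, -6.31, -6.09 and -5.78 in the cultures and -8.17, -7.76 and -4.52 in the tissues, well above background in the eye and the Wi control. It was at least 2.91-fold higher in eye than in cortex and at least 6.71-fold higher than in diencephalon/hypothalamus, where the dimmer array was set to its lowest signal well above background. Cox7b2, known from testis, was at -7.38, -7.99, -7.57, -8.06 and -5.69 in the cultures and -7.90, -6.87 and -7.03 in the tissues, and of these only the Wi control was well above background. Cox8c, also known from testis, was at -7.40, -5.62, -7.55, -8.06 and -6.05 in the cultures and -8.04, -8.13 and -8.02 in the tissues, and of these only Activin RAX-positive cells were well above background. Cox4i2, the isoform of subunit 4 known from lung, was well above background on all arrays, at -1.50, -1.47, -1.88, -1.58 and -0.89 in the cultures and -1.98, -1.93 and -1.24 in the tissues. The Wi control was highest and cortex lowest, and the difference was 0.25 (SE 0.31).

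**Figure D3:**
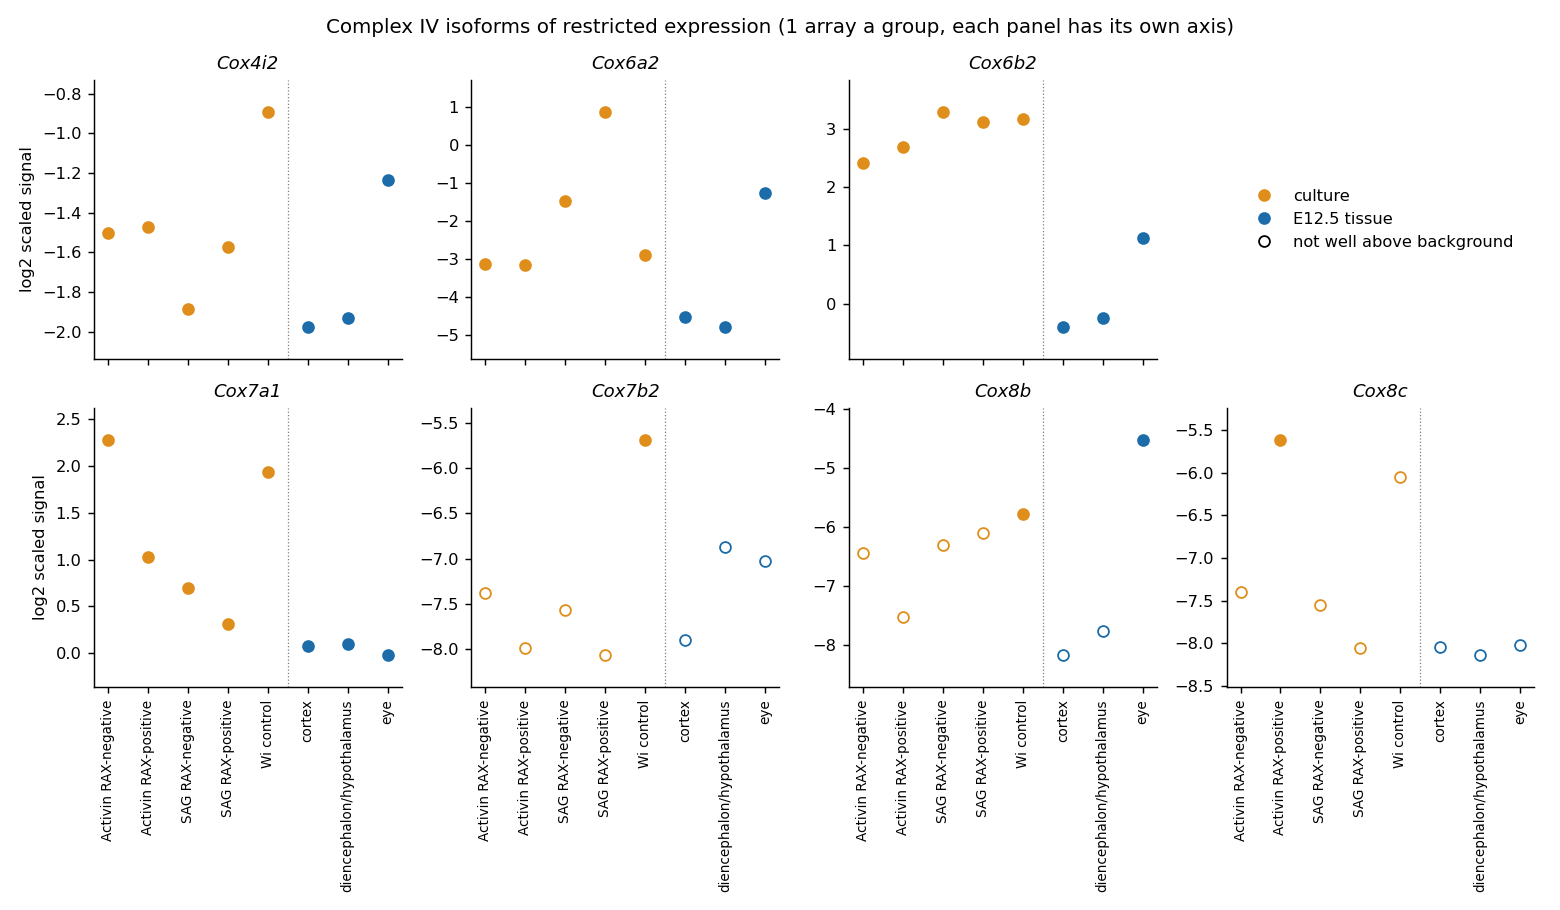
Level of each of the 7 restricted complex IV isoforms (log2 signal scaled to the array's 75th percentile), 1 point for each array, with cultures left of the dotted line and tissues right of it. Open points were not well above background. Cox6b2 is higher in every culture than in any tissue, Cox7a1 is highest in Activin RAX-negative cells and the Wi control, and Cox6a2 is highest in SAG RAX-positive cells.

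The gates and the added factors were compared as pairs of arrays. A pair has no replicate and no test. A gene is counted where it differed at least 1.5-fold and the brighter array was well above background, and the scanner software's error of a log2 difference had a median of 0.20 for these genes. In bulk samples, fewer cells of a type and less RNA per cell cannot be told apart.

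Few of these genes differed between RAX-positive and RAX-negative cells by the main scaling. After activin 2 of 81 detected members were at least 1.5-fold higher in RAX-positive cells and 2 lower, where 32.9% and 10.5% of all detected genes were, and 16.2% and 11.8% of genes well above background on both arrays. Cox8c, counted as higher, was well above background on the RAX-positive array alone. With the RAX-negative array set to its lowest signal well above background, Cox8c was at least 0.86-fold as high. A rise of 1.5-fold is thus not shown for Cox8c. After SAG 1 of 80 was higher and 5 were lower, where 17.9% and 17.3% of all detected genes were, and 14% and 15% of those well above background on both. The median difference of the members was -0.10 after both factors, and that of all genes 0.05 and 0.04. Quantile scaling gave -0.02 after activin and -0.17 after SAG, with 9 members lower after SAG. Median scaling gave -0.50 and 22 lower after activin, and 0 lower after SAG. At least 1.5-fold in the same direction after both factors were 0 members, where 7.58% of all genes were higher and 4.16% lower in both pairs. Cox7a1 was 2.37-fold lower in RAX-positive cells after activin and 1.31-fold lower after SAG. Cox6a2 was 5.05-fold higher in RAX-positive cells after SAG, and after activin its levels on both arrays were -3.14. Cox6b1 went up 1.79-fold with the RAX-positive gate after activin (2.68 to 3.52) and down 1.27-fold after SAG (3.09 to 2.75). Of the 5 lower genes after SAG, named after their values were seen, Cox4i1, the common isoform of subunit 4, went from 6.69 to 6.08 and Ndufb4 from 4.90 to 4.28. An additive limma fit of gate and factor on the 4 sorted arrays has 1 residual degree of freedom. In simulated data with the main scaling, the main filter and each gene's measured spread, it called 0% of genes changed by 8 in log2. Its counts thus say nothing for or against a difference, and they moved with the filter and the scaling. For the gate it called 0 of 26403 genes and 0 members (7.44% of genes and 0 members at an unadjusted p under 0.05), and under median scaling 151 genes higher and 501 lower, with 0 members. Under median scaling the fit took a spread common to all genes, so the calls under that scaling do not rest on each gene's own spread. Among the 21139 genes well above background on all 4 sorted arrays, the main scaling gave 1 call higher and 36 lower, with 0 members. Normexp background correction with the main filter gave 0 higher and 16 lower, again with 0 members.

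Whether most of these genes had higher levels after activin than after SAG depended on the scaling, above all in RAX-negative cells. In RAX-positive cells 24 of 81 detected members were at least 1.5-fold higher with activin and 1 was lower, where 33.6% and 13.2% of all detected genes were, and 26.0% and 13.8% of those well above background on both. The share of members that were higher was near these shares, and the share that were lower was below them. The 24 include Cox8c, well above background on the activin array alone of this pair. With the SAG array set to its lowest signal well above background, Cox8c was at least 2.61-fold higher with activin. In RAX-negative cells 13 of 80 were higher and 2 lower, where 26.9% and 27.9% of all genes were, and 27.3% and 20.6% of those well above background on both. The median of members was 0.37 in RAX-positive and 0.39 in RAX-negative cells, against 0.20 and 0.14 for all genes. Quantile scaling left 0.19 in RAX-positive cells, against 0.04 for all genes, and 0.01 in RAX-negative cells, against 0.10. The members at least 1.5-fold higher were then 8 and 3, and with median scaling 9 and 60. In RAX-negative cells 75 of 80 members were above 0 by the main scaling, 41 after quantile scaling and 38 with normexp background correction. Of the 73 widely expressed subunits, 65 were higher with activin in both gates by the main scaling and 33 after quantile scaling, where 44.6% and 39.0% of all genes were. At least 1.5-fold higher in both gates were 8 members (Atp5k, Atp5s, Atp5sl, Cox7a1, Ndufa4, Ndufb2, Ndufb4 and Uqcrq), which is 8 of 80 beside 13.2% of all genes. After quantile scaling 2 of these remained, Atp5s and Cox7a1. At least 1.5-fold lower in both gates was 1 member, Cox6a2, beside 9.1% of all genes.

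Cox7a1 was 1.65-fold higher with activin in RAX-positive and 2.98-fold in RAX-negative cells. Ndufb4 was at 5.51, 5.26, 4.90, 4.28 and 5.67 in the cultures and 5.60, 5.07 and 5.41 in the tissues. Ndufb4 and Uqcrq were 0.97 and 0.70 higher with activin in RAX-positive cells and 0.60 and 0.61 higher in RAX-negative cells. Atp5s, a protein named for the ATP synthase but not part of it, was at -1.36, -1.35, -2.15, -2.78 and -0.96 in the cultures and -1.36, -1.96 and -1.49 in the tissues. It was 1.73-fold lower with SAG in RAX-negative and 2.68-fold lower in RAX-positive cells. Atp5sl was at 3.72, 2.96, 2.46, 2.33 and 2.75 in the cultures and 2.59, 2.34 and 2.84 in the tissues, with Activin RAX-negative cells highest. Atp5k, a membrane subunit of ATP synthase, was at 6.25 and 6.08 after activin and 5.47 and 5.26 after SAG. Ndufa4, first described in complex I and since assigned to complex IV, was at 5.68, 5.53, 4.97, 4.88 and 4.51 in the cultures and 5.64, 5.17 and 5.40 in the tissues, lowest in the Wi control. Cox6a2 went the other way, 16.3-fold lower with activin in RAX-positive and 3.21-fold lower in RAX-negative cells. It was the member with the largest pair difference, and after quantile scaling its differences were -4.09 and -1.48. Cox6b2 was lower with activin as well, by 0.42 and 0.87, and by 0.60 and 1.09 after quantile scaling. For the factor the additive limma fit called 0 members and 0 of 26403 genes, and under median scaling 746 genes higher and 549 lower, with 1 member lower, Cox6a2. The calls under median scaling again rest on a spread common to all genes, not on each gene's own spread. Among the 21139 genes well above background on all 4 sorted arrays, the main scaling gave 187 calls higher and 104 lower, with 0 members. The values that follow are from the main scaling and filter. At an unadjusted p under 0.05 there were 3636 genes, or 13.8%, among them Atp5s, higher with activin (1.11, SE 0.34, adjusted p 0.357), and Cox6a2, lower (-2.85, SE 0.72, adjusted p 0.342).

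**Figure D4:**
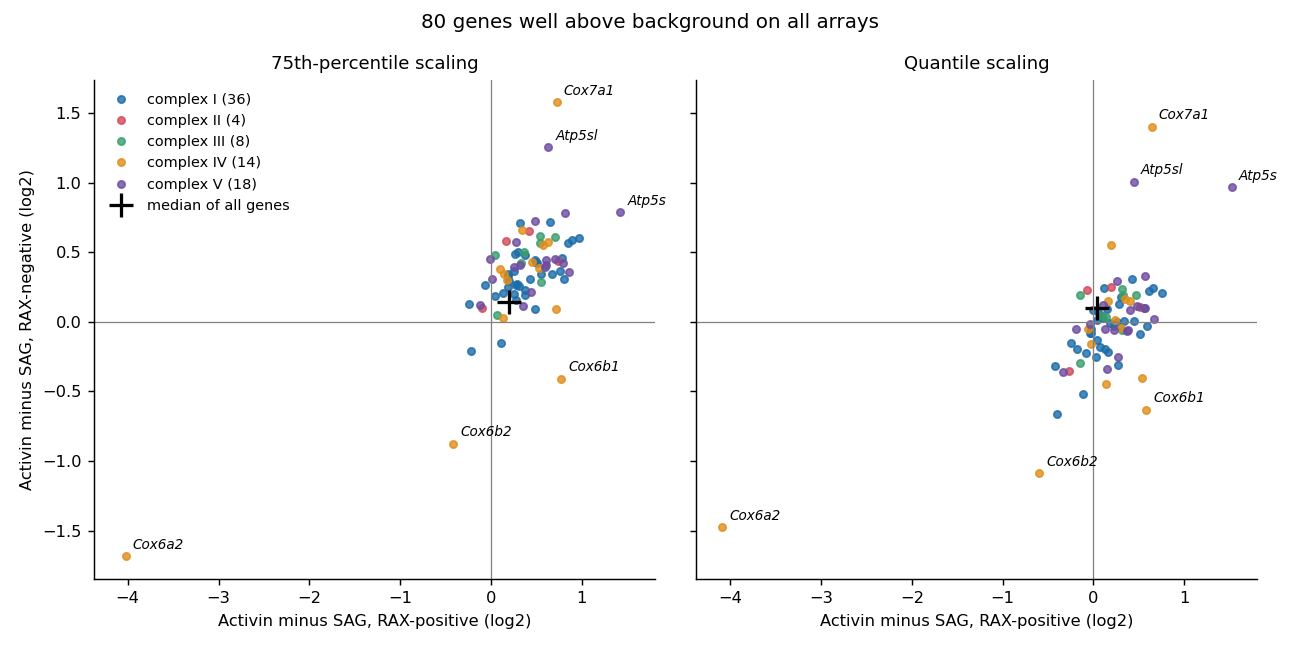
Activin minus SAG in log2 in RAX-positive (horizontal) and RAX-negative cells (vertical) for the 80 genes well above background on all arrays, under 75th-percentile scaling (left) and quantile scaling (right). Points are genes, coloured by complex, and the cross is the median of all genes. Most genes lie above 0 on both axes on the left panel and around 0 on the vertical axis on the right panel, while Cox6a2, Cox6b2, Cox7a1 and Atp5s keep their side.

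SAG RAX-positive cells had the lowest level of the 5 cultures for 38 of the 73 widely expressed subunits (52.1%), and for 37 after quantile scaling, where 19.9% and 19.5% of all genes were lowest in those cells. Under median scaling they were lowest for 26 (35.6%, all genes 16.5%), and SAG RAX-negative cells for 34 (46.6%, all genes 27.1%), so which SAG population was lowest most often depended on the scaling. By the main scaling SAG RAX-positive cells were the lowest culture for 18 of 36 genes in complex I, 2 of 4 in complex II, 6 of 8 in complex III, 5 of 10 in complex IV and 7 of 15 in complex V. Ndufb4, Ndufb2, Ndufa1, Ndufc2 and Ndufb6, accessory subunits of complex I, were lowest of all 8 arrays there, at 4.28, 3.93, 4.62, 4.92 and 4.00. Subunits of the same complexes did not all follow: Ndufa12 was highest there of the cultures (5.64 against 5.21 to 5.58), as was Sdhb on the probe read (5.85 against 5.65 to 5.75). Another Sdhb probe, well above background on all arrays, did not show this. It read 4.18 in SAG RAX-positive cells, below the other sorted cultures (4.30 to 4.48) and above the Wi control (3.84). Activin RAX-negative cells were the highest culture for 36 of 73 (26.3% of all genes), for 62 under median scaling (42.6% of all genes) and for 15 after quantile scaling (23.7% of all genes), where the Wi control was highest for 31.

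Against the Wi control, on its own slide and from another line, the medians of the members were 0.15 for Activin RAX-negative, 0.04 for Activin RAX-positive, -0.18 for SAG RAX-negative and -0.35 for SAG RAX-positive cells, and -0.07, -0.12, -0.04 and -0.27 after quantile scaling. These 4 comparisons share the Wi control. At least 1.5-fold lower in SAG RAX-positive cells were 21 of 82 detected members and higher 2, where 27.9% and 32.3% of all detected genes were, and 26.4% and 28.5% of those well above background on both. The 21 include Cox7b2, well above background in the Wi control alone. With the SAG array set to its lowest signal well above background, Cox7b2 was at least 2.49-fold higher in the Wi control. On the probes read and by the main scaling, the Wi control was at either end for some subunits, named after their values were seen. Ndufv3 (6.72), Uqcrh (6.84), Cox8a (7.13) and Atp5l (6.40) were highest there of all arrays. Sdha (4.31), Ndufs1 (4.15), Ndufa4 (4.51), Ndufa10 (2.79) and Ndufs8 (2.53) were lowest there. After quantile scaling Atp5l was higher in diencephalon/hypothalamus and eye (0.37 and 0.27 from its mean over the arrays) than in the Wi control (0.22). Cox8a was then at 0.17 in the Wi control and 0.16 in the eye. Another Cox8a probe read 6.51 in the Wi control and 6.56 in both Activin populations. Another Ndufv3 probe read 0.44 in the Wi control, below the 4 sorted cultures (0.72 to 1.37). By the main scaling the remaining Ndufv3 probe and the other probes of Uqcrh and Atp5l were highest in the Wi control. Line, sort and slide cannot be told apart here.

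Among the tissues, cortex was highest for 64 of the 73 widely expressed subunits and diencephalon/hypothalamus lowest for 62 by the main scaling. After quantile scaling cortex was highest for 19 and lowest for 39, so no order of the tissues is given. At least 1.5-fold higher in cortex than in diencephalon/hypothalamus were 8 of 80 members (1 after quantile scaling), where 22.3% of all detected genes were. The eye differed in single genes. Ndufa1 was 0.65 above cortex and 0.82 above diencephalon/hypothalamus, and 1.01 and 0.72 after quantile scaling. Cox6b2 was 1.53 and 1.37 above them, Cox4i2 0.74 and 0.69, and Cox6a2 9.63-fold and 11.5-fold higher.

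Genes that work with the respiratory chain gave a frame for these values. The 13 subunits encoded in mitochondrial DNA had a median culture minus tissue of 0.13 (-0.10 after quantile scaling), with ND3 lowest at -0.15. One of them, ND6, was called higher in culture: it was at 0.59, 0.64, 0.34 and 1.99 in Activin RAX-negative, Activin RAX-positive, SAG RAX-negative and SAG RAX-positive cells and 0.39 in the Wi control, against -0.88, -1.40 and -1.11 in the tissues, with a difference of 1.92 (SE 0.41, limma adjusted p 0.0461). After quantile scaling it was 1.93 with an adjusted p of 0.0505, and so was not called. ND6 is the complex I subunit encoded on the other strand of mitochondrial DNA from the rest of that list. Of 45 assembly factors 0 were called, with a median of 0.02 (-0.11 after quantile scaling), from Cox20 at -0.72 to Higd1a, a gene known to respond to low oxygen, at 1.49. Of 16 genes of mitochondrial transcription and biogenesis 0 were called, with a median of 0.15. Ppargc1a, the coactivator that drives mitochondrial biogenesis, ran from -5.48 in Activin RAX-negative cells to 0.26 in the Wi control, with a difference of -1.21 (SE 1.12). Electron carriers (15 genes, median -0.09), the citric acid cycle (18 genes, 0.08, or -0.16 after quantile scaling) and mitochondrial ribosomal proteins (77 genes, -0.07) had 0 calls each. Cyct, the cytochrome c of testis, was the highest electron carrier at 2.30 (SE 0.81), with -2.51 in the Wi control and between -7.67 and -6.28 in the tissues, and was not called. Cytosolic ribosomal proteins (76 genes) had a median of 0.51, or -0.03 after quantile scaling, and 0 calls. In 33 of the 76 every culture lay above every tissue, where 9.28% of all genes did, and in 1 after quantile scaling or median scaling.

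Glycolysis, the other route to ATP, had the most calls of the metabolic lists. Of 20 genes 6 were called higher in culture and 0 lower, with a median difference of 1.46 (1.17 and again 6 calls after quantile scaling, 1.30 and 3 calls after median scaling). In 16 every culture lay above every tissue, where 9.28% of all genes did. After quantile scaling this held for 14 of the 20, and for 1807 of all 27034 genes tested. After median scaling it held for 7 and for 1509. Slc2a3, a glucose carrier, had the largest difference, 4.18 (SE 0.47, limma adjusted p 0.0028). The other called genes, named after their values were seen, were Pfkp (2.66), Pfkl (1.94), Aldoa (1.91) and Pkm (1.30), enzymes of the pathway, and Pdk1 (2.54), a kinase that keeps pyruvate out of the citric acid cycle. Ldhb, a lactate dehydrogenase, was the lowest at -0.03. No test compared this list with the respiratory chain genes.

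**Figure D5:**
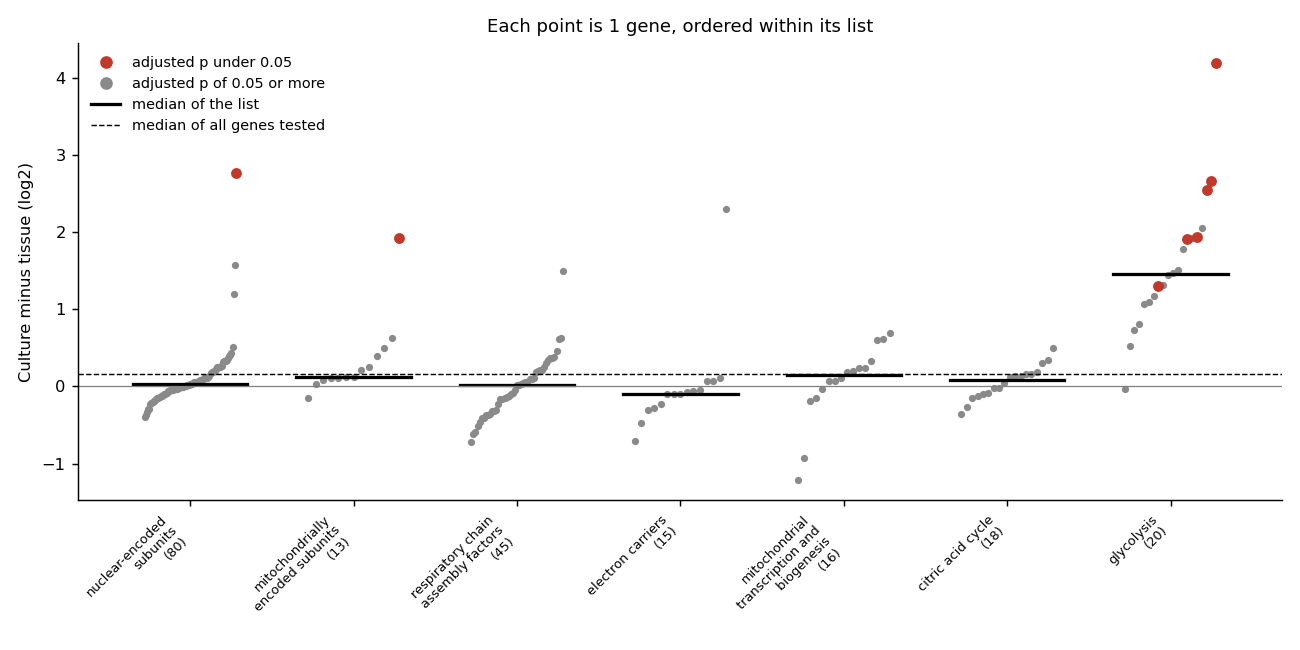
Culture minus tissue in log2 for the genes of 7 lists, 1 point for each gene in rising order, with the number of genes tested in brackets. Red points have an adjusted p under 0.05, black bars are list medians and the dashed line is the median of all genes tested. The glycolysis genes have a median of 1.46 and 6 calls, and the nuclear-encoded subunits a median of 0.03 and 1 call.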

How the data were processed

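RNA of 8 groups (1 pooled sample each, 50 ng, LowInput QuickAmp labelling per the labels' protocols) was read on single-colour arrays. The deposited intensity values are processed signals made with Agilent Feature Extraction 10.7.3.1 per the file headers, background-subtracted, detrended and not scaled between arrays. The submitters' processing notes name Feature Extraction 9.1 and limma, and probe positions are mm9. The authors' deposited table holds log2 values normalized between arrays, with a background step and offset that the files and labels do not name. It was used as an alternative.

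Here outlier spots and control spots were removed, repeated spots were averaged, and log2 processed signals were set against each array's 75th percentile. The brightest of a gene's probes stood for it. With limma 3.58.1 (R 4.3.3), cultures were compared with tissues over genes well above background on at least 3 of 8 arrays, and gate and factor on the 4 sorted arrays in an additive model over genes well above background on at least 2. p-values were adjusted by Benjamini-Hochberg over all genes tested, with a threshold of 0.05. Pairs of arrays were counted at 1.5-fold without a test. Motifs and CpG were counted with python 3.11.15. The scripts were tested on simulated data. The alternatives were median and quantile scaling, normexp background correction (offset 50), the authors' values, the mean of probes, other filters on dim probes and leaving out each array.

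The members and the gene lists were chosen with earlier results of these data known. Every array's values are given for the 2 highest and 2 lowest differences between cultures and tissues in each complex, for called members, for the isoforms, and for members past 1.5-fold in both gates or factors. Up to 3 genes are named for each other list, beside defining markers. The names of the mitochondrially encoded genes were set to the array's own spelling after the files were read. One gene's own values are not reported here.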

Additional observations from a re-analysis of the deposited data

Results flagged for a closer look

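Among the 5 cultures 1 array stood apart from the other 4 for 2 genes by the main scaling, of 35 groups of values examined, where chance flags about 1 in 20. Uqcrc1, a core protein of complex III, was at 3.91 in Activin RAX-negative cells and between 3.42 and 3.48 in the others. That array was 0.46 above the Wi control by the main scaling and 0.13 above it after quantile scaling. After quantile scaling Activin RAX-positive, SAG RAX-negative and SAG RAX-positive cells stood at -0.25, -0.07 and -0.10 against the Wi control. The distance of that array from the others thus depended on the scaling. Cox7b2, a complex IV isoform, was at -5.69 in the Wi control, the one array where it was well above background, and between -8.06 and -7.38 in the others. With each dimmer array set to its lowest signal well above background, the Wi control was at least 0.82-fold as high as Activin RAX-negative and 0.83-fold as high as SAG RAX-negative cells. The bound was 1.18-fold for Activin RAX-positive and 2.49-fold for SAG RAX-positive cells. A higher level than in the RAX-negative cells is thus not shown.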

How the results depend on the processing

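No paired analysis was possible because each group has 1 array, so no replicate numbers pair samples. The additive fit of gate and factor takes each as a block for the other. Calls and counts that moved depended mostly on the scaling, and the cause was not tested. Of the values that answer a comparison, 132 alternatives kept direction and size and 36 moved. Of the single genes, 357 kept their direction and call, 46 reversed and 2 lost the call. With 8 arrays and no replicate of a group, the number of arrays limits the precision.

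For cultures against tissues, the members called higher ranged from 0 to 1 on leaving out 1 array (0 without cortex or diencephalon/hypothalamus). Their median was -0.191 with quantile scaling, -0.192 with normexp and -0.189 with the authors' values. Median scaling gave 1 member lower for the added factor, Cox6a2, in a fit that took a spread common to all genes.

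For activin minus SAG in RAX-negative cells, the median of members was 0.727 with median scaling, 0.00511 with quantile scaling, -0.0128 with normexp and 0.0214 with the authors' values. Less the median of all genes, it was -0.0949, -0.0836 and -0.0708 with the last 3. Members 1.5-fold higher were 60, 3, 3 and 3 under these 4 settings, and members lower were 1, 4 and 4 under the first 3. In RAX-positive cells normexp gave a median of 0.170, members higher were 9, 8, 8 and 11, and 2 were lower with median scaling, quantile scaling and the authors' values. For the gate after SAG, 0 were lower with median scaling and 9 with quantile scaling. For the gate after activin, median scaling gave a median of -0.50 and 22 lower, and 1 was higher under each of the 4 settings.

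Of single genes between cultures and tissues, the mean of probes gave Atp5g1 0.447. Quantile scaling, normexp and the authors' values gave Atp5g2 -0.106, -0.0758 and -0.0799 and Uqcrb -0.0096, -0.0043 and -0.0102, and quantile scaling gave Atp5g3 -0.0185. Median scaling, quantile scaling, normexp and the authors' values gave Cox7b -0.157, -0.205, -0.189 and -0.190, Sdhc -0.101, -0.0745, -0.0466 and -0.0518, and Sdhd -0.128, -0.193, -0.231 and -0.221. Leaving out 1 array gave Atp5g1 -0.184 to 0.0648, Atp5s -0.301 to 0.153, Cox6c -0.146 to 0.0809, Cox7b -0.0994 to 0.107, Sdha -0.139 to 0.144, Sdhb -0.0932 to 0.155, Sdhc -0.0657 to 0.254, Sdhd -0.151 to 0.197 and Uqcrq -0.231 to 0.0209.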
